A study of Homo sapiens with 36 samples.

Results

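The S100 genes and the annexins were taken from the deposited gene table by their symbols, as S100A or ANXA followed by a number, or S100B, S100P, S100G or S100Z. This gave 31 genes of 26475 symbols, 19 of them S100 genes and 12 of them annexins. Expression was measured by sequencing poly-A RNA of 3 human cancer cell lines, MDA-MB-468 (basal-like breast carcinoma), PANC-1 (carcinoma of the pancreas) and WiDr (adenocarcinoma of the colon and rectum). In each line, cells with hairpin 1 or hairpin 2 in the lentiviral vector pGIPZ were set against cells with a non-silencing hairpin in the same vector, and a further WiDr experiment set guide 1 and guide 2, which are CRISPR guide RNAs, against the non-targeting guide NT-1. This made 12 groups of 3 biological replicates, 36 libraries in 4 experiments of 9.

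All groups, the controls included, carried a vector, and all lines were grown in DMEM with fetal bovine serum. Whether the guide cells were pools or single clones is not given in the sources used here. In 4 of the 6 targeting guide libraries the title and the genotype field name different guides. The titles were used, and the grouping by genotype field was run as an alternative. For PANC-1, hairpin 2 is named only as the label has it. Library totals ran from 28371127 to 49237322 expected counts, and the 31 genes together took between 0.371% and 0.77% of them.

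S100 proteins are small calcium sensors built from paired EF-hand helices. Calcium binding opens a surface with which most of them grip a target protein. Annexins are cytosolic proteins that dock onto acidic membrane lipids when calcium rises, and some dock together with an S100 partner. S100A10 holds ANXA2 in a complex at the plasma membrane, S100A11 binds the tail of ANXA1, and S100A8 with S100A9 forms calprotectin, the abundant calcium- and metal-binding protein of neutrophils and of stressed epithelium. Of the 31 genes, 16 lie on chromosome 1 between 150982017 and 153632039 (15 S100 genes and ANXA9, GENCODE 29 on GRCh38), in and near the epidermal differentiation complex. The annexins are spread over 8 chromosomes. The principal transcripts of the S100 genes are short, from 455 to 1468 bases, and those of the annexins run from 1417 to 6965 bases.

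Promoters are shown for ANXA1, ANXA2, ANXA10 and S100A10, 4 of the 6 genes that rose with every WiDr construct. They share this direction by that choice, while the sizes of the rises differed between constructs. That of ANXA7, which held none of the motifs searched, and that of ANXA13 are not shown. The 300 bases run from 250 before to 50 after the RefSeq transcript start on GRCh38.p14, in the direction of transcription, and capitals mark letters found by a search of both strands for 3 motifs: TGANTCA for AP-1, TTGCNNAA for C/EBP and TATAAA for the core promoter box of that name. The windows are chr9:73151615-73151914 on the plus strand for ANXA1, chr4:168092287-168092586 on the plus strand for ANXA10, chr15:60397937-60398236 on the minus strand for ANXA2 and chr1:151993810-151994109 on the minus strand for S100A10.
ANXA1: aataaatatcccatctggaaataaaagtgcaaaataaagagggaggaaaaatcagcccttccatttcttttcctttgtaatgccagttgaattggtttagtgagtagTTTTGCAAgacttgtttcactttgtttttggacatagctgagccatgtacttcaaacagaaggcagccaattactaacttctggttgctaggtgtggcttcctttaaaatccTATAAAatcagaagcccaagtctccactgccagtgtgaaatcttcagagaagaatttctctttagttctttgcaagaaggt
ANXA10: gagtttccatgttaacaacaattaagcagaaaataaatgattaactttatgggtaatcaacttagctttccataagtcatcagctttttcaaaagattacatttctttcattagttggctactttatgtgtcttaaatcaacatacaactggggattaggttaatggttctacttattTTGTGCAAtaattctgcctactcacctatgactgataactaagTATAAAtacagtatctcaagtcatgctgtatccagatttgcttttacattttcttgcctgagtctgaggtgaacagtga
ANXA2: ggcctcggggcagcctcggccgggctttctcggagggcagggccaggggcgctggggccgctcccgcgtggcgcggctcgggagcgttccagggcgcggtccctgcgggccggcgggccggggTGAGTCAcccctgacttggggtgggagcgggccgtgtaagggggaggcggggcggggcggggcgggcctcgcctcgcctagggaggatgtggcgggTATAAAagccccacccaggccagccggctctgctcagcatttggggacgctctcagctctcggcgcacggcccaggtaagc
S100A10: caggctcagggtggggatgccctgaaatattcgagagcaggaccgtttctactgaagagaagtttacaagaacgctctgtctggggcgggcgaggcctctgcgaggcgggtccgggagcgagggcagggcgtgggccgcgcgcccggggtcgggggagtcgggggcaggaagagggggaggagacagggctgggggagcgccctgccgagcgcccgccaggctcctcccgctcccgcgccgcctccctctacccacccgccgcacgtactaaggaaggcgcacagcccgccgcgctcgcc

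The ANXA1 and ANXA10 windows each held a C/EBP match and a TATA match, the ANXA2 window held an AP-1 match and a TATA match, and the S100A10 window held none of the 3 motifs. No match overlapped another. RefSeq promoters were found for 28 of the 31 genes, 39 windows in all. The TATA letters stood in 14 of these 39 windows (35.9%), against 11.5% of 35116 promoters of the same length. AP-1 letters stood in 5 of the 39 windows (12.8%), against 7.71% of all promoters, and C/EBP letters in 5 (12.8%), against 10.5%. A match shows only that these letters are present. Some genes have several overlapping windows, so the windows are not independent.

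Not all members could be measured. Of the 31 genes, 19 passed the filter on low counts in all 4 experiments and 4 in none: S100A12, S100B, S100G and S100Z, whose highest count in any library was 11, 5, 2 and 5. S100A7, S100A8 and S100A9 passed only in MDA-MB-468, ANXA10 and ANXA13 only in WiDr, ANXA8 and S100A1 in MDA-MB-468 and PANC-1, and S100A14 in MDA-MB-468 and both WiDr experiments. Reads of near-identical relatives may be shared with ANXA8 (ANXA8L1, 187 CPM in MDA-MB-468 control cells), with S100A7 (S100A7A, 26.6 CPM there) and with ANXA2 (pseudogenes of at most 10.4 CPM), so the values of these 3 genes are uncertain. S100A1 overlaps S100A13 and ANXA4 overlaps AAK1 on opposite strands, and S100A3 overlaps S100A4 on the same strand. The strand setting of the counting is not given in the sources used here, so reads of such neighbours cannot be told apart.

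Between libraries of the same group the S100 genes moved up or down together with other short transcripts. For each library the deviation of each gene's log2 level from its own group mean was taken. Its median over genes with a transcript under 1000 bases (553 to 577 genes, members left out) was set beside its median over the tested S100 genes. The S100 median deviated in the same direction as the short genes in 34 of 36 libraries, and the long genes, over 5000 bases, deviated in the opposite direction to the short ones in 34. The S100 median lay between -0.552 and 0.323 in PANC-1, between -0.357 and 0.432 in MDA-MB-468, between -0.19 and 0.263 in the WiDr hairpin experiment and between -0.232 and 0.171 in the guide experiment. The annexin median deviated in the same direction as the short genes in 28 of 36 libraries, but by less. It stayed between -0.166 and 0.148 over all libraries. PANC-1 control replicate 1 was the lowest (S100 -0.552, short genes -0.504) and MDA-MB-468 control replicate 1 the highest (S100 0.432, short genes 0.359). An alternative fit that removes a trend on transcript length from each library was therefore added after seeing these values, and its counts of members are given for each line.

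**Figure D1:**
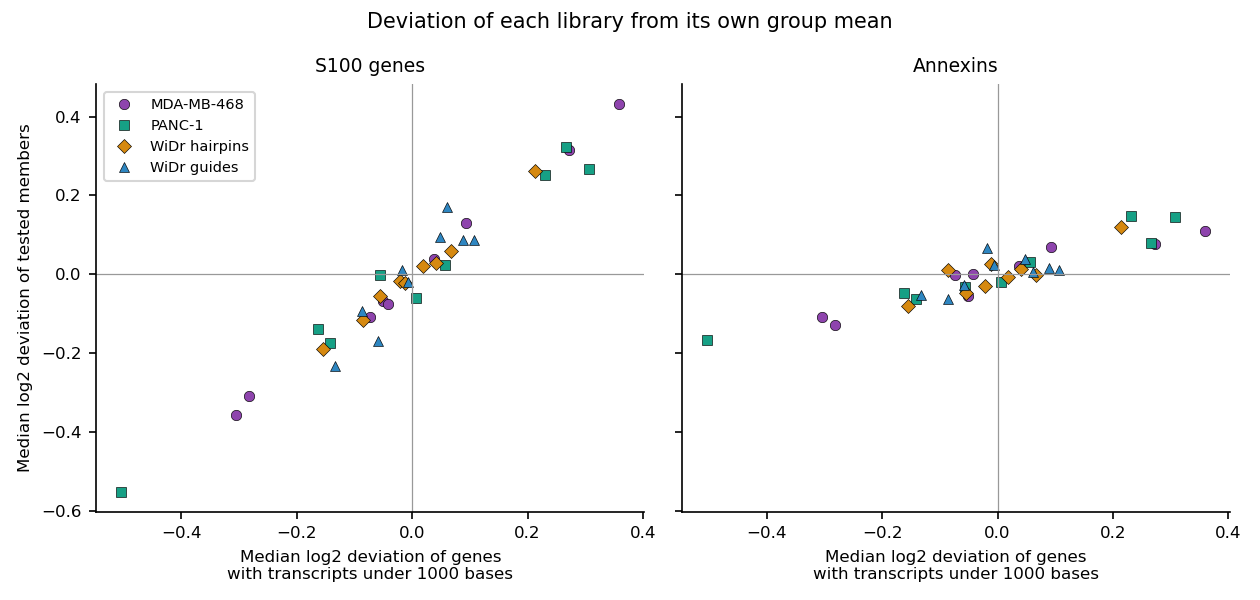
Median deviation of the tested S100 genes (left) and annexins (right) from the library's own group mean (y axis, log2 units), against that of genes with a transcript under 1000 bases (x axis, same units), with 1 point per library and a colour per experiment. The S100 points run along a rising line from PANC-1 control replicate 1, at -0.504 on the x axis, to MDA-MB-468 control replicate 1, at 0.359, and the annexin points lie closer to 0.

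In WiDr, ANXA1, ANXA2, ANXA7, ANXA10, ANXA13 and S100A10 rose with each of the 4 constructs. The largest of these rises were those of ANXA13 (1.45-fold to 9.4-fold over the constructs), S100A10 (1.2-fold to 2.94-fold), ANXA10 (1.29-fold to 2.41-fold) and ANXA1 (1.53-fold to 2.11-fold), and ANXA2 and ANXA7 rose by less (1.17-fold to 1.35-fold and 1.12-fold to 1.17-fold). These 6 were 27.3% of the 22 members tested, where 1.49% of 14185 genes rose with all 4. Both shares use the guide groups by title. Under the genotype grouping, which leaves guide 2 with 1 library, S100A10 kept neither guide call. ANXA2, ANXA7 and ANXA13 then did not keep that of guide 2. The hairpins share their control libraries and so do the guides, while the hairpin and guide experiments share no library. With both hairpins 8 members rose, where 12.3% of all genes did, and with both guides 10, where 8.48% did. The 6 genes were 75% and 60% of these lists, and the corresponding shares over all genes were 12.1% and 17.1%. No member fell with all 4 constructs, against 1.41% of all genes. In such bulk RNA, a change in the number of cells that express a gene and a change in RNA per cell cannot be told apart.

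**Figure D2:**
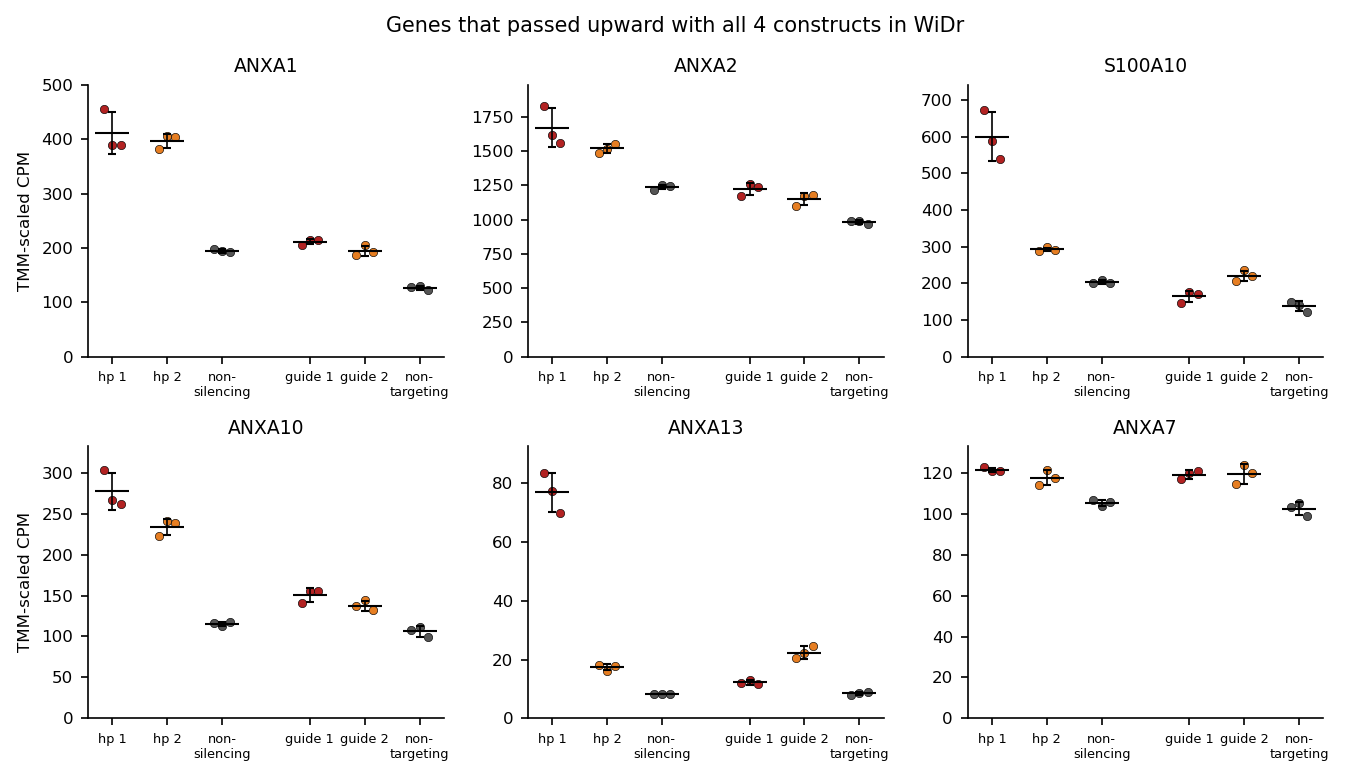
CPM (y axes, linear from 0) of the genes that rose with each WiDr construct, 1 panel per gene, with 1 point per library, a bar at the group mean and whiskers of 1 SD. In each experiment the construct groups stand left of their control (hp is hairpin). For ANXA13 the hairpin 1 libraries, at 69.9 to 83.3 CPM, stand above every other library.

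S100A10 and ANXA2 form the best known pair of the families and both rose. S100A10, the calcium-insensitive partner that anchors ANXA2 at the membrane, had 673, 588 and 540.3 CPM in WiDr cells with hairpin 1 and 289.5, 298 and 290.2 CPM with hairpin 2, against 201, 209 and 201 CPM with the non-silencing hairpin. It had 148, 177 and 172 CPM with guide 1 and 207, 236 and 219 CPM with guide 2, against 149.5, 142 and 122 CPM with the non-targeting guide. All hairpin and guide 2 libraries lay above their controls, while 1 guide 1 library lay within the range of the control. The log2 changes were 1.56 (SE 0.066, adjusted p = 4.97e-11, edgeR quasi-likelihood test with Benjamini-Hochberg adjustment) with hairpin 1, 0.52 (SE 0.065, 1.05e-05) with hairpin 2, 0.26 (SE 0.0816, 0.0207) with guide 1 and 0.68 (SE 0.0817, 7.47e-05) with guide 2. The guide 1 call was lost without non-targeting replicate 3 (0.0786), guide 1 replicate 2 (0.108), guide 1 replicate 3 (0.0674) or guide 2 replicate 3 (0.0979). By the genotype field the guide values of S100A10 were 0.52 and 0.32, the second from 1 library, and neither call was kept.

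ANXA2, the annexin of cell surface plasmin formation and membrane traffic, had 1828, 1614 and 1559 CPM with hairpin 1 and 1487, 1516 and 1549 CPM with hairpin 2, against 1217, 1249 and 1245 CPM with the non-silencing hairpin. It had 1171, 1262 and 1235 CPM with guide 1 and 1099.6, 1174 and 1177 CPM with guide 2, against 986, 993 and 966 CPM with the non-targeting guide. Every construct library lay above every control library of its experiment. The log2 changes were 0.43 (SE 0.062) and 0.30 (SE 0.0619) with the hairpins and 0.32 (SE 0.0491) and 0.23 (SE 0.0491) with the guides, with edgeR adjusted p between 3.38e-05 and 0.00282. By the genotype field the guide 2 value of ANXA2, from 1 library, was 0.33 and the call was not kept.

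ANXA1, an inhibitor of phospholipase A2 and a glucocorticoid-induced mediator of resolving inflammation, rose by 1.53-fold to 2.11-fold over the constructs. It had 455, 389.7 and 389 CPM with hairpin 1 and 381, 405 and 404 CPM with hairpin 2, against 197, 194 and 192 CPM with the non-silencing hairpin. With guide 1 it had 206, 215 and 214 CPM and with guide 2 187, 205 and 192 CPM, against 128, 130.5 and 123 CPM with the non-targeting guide. No construct library overlapped its controls. The log2 changes were 1.08 (SE 0.0601), 1.03 (SE 0.06), 0.74 (SE 0.0494) and 0.62 (SE 0.0495) with hairpin 1, hairpin 2, guide 1 and guide 2, and the highest edgeR adjusted p was 1.6e-07. Its binding partner S100A11 had 432, 376 and 347 CPM with hairpin 1 and 279, 302 and 276 CPM with hairpin 2, against 256, 285 and 280.1 CPM. It had 239.8, 277 and 292 CPM with guide 1 and 222, 241 and 250.1 CPM with guide 2, against 188, 181 and 164 CPM. S100A11 rose with hairpin 1 (log2 0.49, SE 0.0718, adjusted p = 5.24e-05) and with both guides (0.60 and 0.42, SE 0.0723 and 0.0724, adjusted p = 1.06e-05 and 0.000779) but not with hairpin 2 (0.06, adjusted p = 0.529), whose libraries overlapped the control. With the correction for transcript length the hairpin 2 value was 0.24 and passed (edgeR adjusted p = 2.18e-05). The guide 2 call of S100A11 was lost in 1 of 17 alternatives.

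The annexins of the digestive tract rose too. ANXA13, the intestinal annexin that is anchored to membranes by a lipid tail, had 83.3, 77.4 and 69.9 CPM with hairpin 1 and 18.2, 16.2 and 17.8 CPM with hairpin 2, against 8.22, 8.16 and 8.13 CPM with the non-silencing hairpin. Its log2 changes were 3.23 (SE 0.08) and 1.09 (SE 0.0836). With guide 1 ANXA13 had 12.01, 13.1 and 11.6 CPM and with guide 2 20.4, 22.1 and 24.6 CPM, against 7.94, 8.60 and 8.85 CPM (log2 0.53 and 1.40, SE 0.0902 and 0.0876). By the genotype field the guide values of ANXA13 were 1.12 and 0.45, the second from 1 library and no longer called. ANXA10, an annexin best known from the stomach lining, had 304, 267 and 262 CPM with hairpin 1 and 223, 241 and 238 CPM with hairpin 2, against 116, 112 and 117 CPM (log2 1.27 and 1.02, SE 0.0585 and 0.0583). It had 140.5, 155 and 155 CPM with guide 1 and 137, 144 and 132 CPM with guide 2, against 108, 112 and 98.9 CPM (0.50 and 0.37, SE 0.0587 and 0.0588). For both genes the construct and control ranges were separate in both experiments, and the highest edgeR adjusted p was 0.000256. ANXA7, also called synexin, a membrane-fusing annexin, rose by 0.16 to 0.22 on the log2 scale with the 4 constructs (edgeR adjusted p at most 0.0105). Its hairpin 2 call was lost without hairpin 2 replicate 2 (edgeR adjusted p = 0.0542). By the genotype field the guide 2 value of ANXA7, from 1 library, was 0.24 and the call was not kept.

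Some of the colorectal markers also changed. Of the 7 markers, all tested, 2 rose and 1 fell with both hairpins (12.3% and 12.9% of all genes). With both guides 2 rose and 0 fell (8.48% and 6.26%). The median log2 changes of the list were -0.24 and -0.11 with the hairpins and 0.18 and 0.12 with the guides. LGALS4, an intestinal galectin, rose with each (0.87, 0.51, 0.43 and 0.57 with hairpin 1, hairpin 2, guide 1 and guide 2), CEACAM5 fell with the hairpins (-1.38 and -1.04), VIL1 rose with the hairpins (0.47 and 0.24) and KRT20 with the guides (1.35 and 0.40). The summed level of the list was 1318 to 1403 CPM with hairpin 1 and 1391 to 1413 CPM with hairpin 2, against 1339 to 1387 CPM with the non-silencing hairpin. With guide 1 it was 1169 to 1271 CPM and with guide 2 897 to 977 CPM, against 696 to 710.3 CPM with the non-targeting guide. The part of these markers in the annexin and S100 changes was not tested. Ribosomal RNA genes took 1.27% to 2.56% of counts with hairpin 1 and 5.38% to 10.2% with hairpin 2, against 1.59% to 2.71% in the hairpin control, and the guide groups overlapped with their control.

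Over all members tested with hairpin 1 in WiDr, 13 of 22 rose and 3 fell, where 48% of all genes passed (24.1% up and 23.9% down). With hairpin 2, 9 rose and 3 fell, where 44.7% of genes passed (22.2% up and 22.5% down). The median log2 change of the members was 0.43 and 0.12 with the hairpins, and that of all genes lay between -0.02 and 0.02 in each of the 8 construct comparisons. With guide 1, 16 of 22 rose and 3 fell, where 41.6% of genes passed (21.4% up and 20.3% down), and with guide 2, 12 rose and 1 fell, where 25.5% passed (14.1% up and 11.3% down). The members' medians were 0.44 and 0.33. Members whose libraries all lay above the control numbered 14 and 10 of 22 with the hairpins, where 27% and 29.1% of all genes did, and 15 and 15 with the guides (28.2% and 22.3%). Those wholly below numbered 3 and 6 with the hairpins (27.5% and 29.4% of all genes) and 3 and 1 with the guides (28.1% and 17.6%). Under the genotype grouping of the guide libraries, 8 members rose and 1 fell with guide 1 (4.83% and 4.03% of all genes), and 5 rose and 0 fell with guide 2 (0.517% and 0.314%).

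Of 11 annexins tested in WiDr, 6 rose with both hairpins and 6 with both guides, and of 11 S100 genes 2 and 4 did. ANXA11, an annexin that tethers RNA granules to lysosomes, rose with both hairpins and guide 1 (0.12, 0.21 and 0.17) and had 0.12 with guide 2 (edgeR adjusted p = 0.0781). Its hairpin 1 call (edgeR adjusted p = 0.0434) was lost in 10 of 16 alternatives (adjusted p up to 0.145), among them without any of 6 libraries. The hairpin 2 call was lost with the correction for transcript length (0.0548), and the guide 1 call without non-targeting replicate 1 (0.0563) or guide 1 replicate 2 (0.0594). ANXA3 had 177, 190.1 and 184 CPM with guide 1 and 159, 176 and 169 CPM with guide 2, against 126, 129 and 123 CPM with the non-targeting guide, with no overlap (log2 0.54 and 0.41, SE 0.0506 each, adjusted p = 2.72e-07 and 2e-05), and it passed with neither hairpin (-0.01 and 0.02). ANXA5, which binds exposed phosphatidylserine and is used to stain dying cells, rose with hairpin 2 (0.39) and guide 1 (0.58) and passed with neither of the other two constructs (0.06 and 0.11). The guide 1 call of ANXA5 was lost in 1 of 17 alternatives. ANXA6, the annexin with a duplicated core, fell with hairpin 1 (-0.90) and both guides (-0.44 and -0.30) and had -0.30 with hairpin 2 (edgeR adjusted p = 0.104). The guide 2 call was lost without non-targeting replicate 1 (0.0543) or 2 (0.0829). Its level in WiDr was low, 2.08 to 4.40 CPM with the hairpins against 4.54 to 5.13 CPM with the non-silencing hairpin.

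Among the S100 genes, S100A2, an epithelial S100 gene, rose with 3 constructs. It had 15.7, 12.3 and 10.8 CPM with hairpin 1 and 12.1, 12.2 and 11.9 CPM with hairpin 2, against 7.15, 9.11 and 7.75 CPM (log2 0.68 and 0.59, SE 0.125 each, adjusted p = 0.000377 and 0.00134). It had 6.74, 8.62 and 8.77 CPM with guide 1, against 3.99, 3.13 and 2.55 CPM with the non-targeting guide (1.32, SE 0.15, edgeR adjusted p = 2.63e-06), and passed with guide 2 neither in this fit (0.28) nor with the correction for transcript length. The S100A2 call was lost in 1 of 17 alternatives with guide 1 and in 1 of 16 with hairpin 2. S100A14, an epithelial S100 protein of the cell membrane, was the only member down with both hairpins: 64.4, 55.5 and 49.7 CPM with hairpin 1 and 35.6, 35.3 and 38.9 CPM with hairpin 2, against 79.9, 85.8 and 83.2 CPM. The falls were -0.56 (SE 0.0768, adjusted p = 2.65e-05) and -1.18 (SE 0.0786, 1.65e-08) and no library overlapped. With the guides its values were -0.04 and -0.06 and did not pass, and the difference between guide and hairpin changes was 0.81 (SE 0.115, adjusted p = 1.31e-05). S100A13, which takes part in the release of FGF1, rose with hairpin 1 (0.44) and both guides (0.37 and 0.28), and its guide 2 call did not hold with the correction for transcript length (0.14, edgeR adjusted p = 0.156) or without any of 5 libraries (0.053 to 0.148). Without hairpin 1 replicate 1 its hairpin 1 value was 0.25. Its hairpin 1 call was lost in 1 of 16 alternatives and its guide 1 call in 2 of 17.

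S100P, named for its abundance in placenta, had 602, 768 and 809 CPM with guide 1 and 493, 501 and 589.7 CPM with guide 2, against 421, 379 and 328 CPM with the non-targeting guide. The guide ranges lay above the control (log2 0.95, SE 0.137, adjusted p = 0.000853, and 0.49, SE 0.137, 0.0344). The guide 2 call was lost without any of 6 libraries: non-targeting replicates 2 and 3, guide 1 replicate 2 and guide 2 replicates 1, 2 and 3 (edgeR adjusted p from 0.0505 to 0.145). It was also lost without the filter on low counts (0.0936), with the replicate number as a block (0.114) and with all 36 libraries in 1 fit (0.149). With hairpin 1 S100P had 866, 669 and 605 CPM, against 883, 1049.7 and 1002 CPM, and fell (-0.46, SE 0.114, adjusted p = 0.00668). With hairpin 2 it had 793, 835 and 779 CPM and -0.29 (adjusted p = 0.0621).

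A few genes went opposite ways with the constructs of an experiment. S100A4, a motility-linked S100 protein that binds non-muscle myosin, had 154, 114 and 108 CPM with hairpin 1 and 53.9, 54.8 and 52.3 CPM with hairpin 2, against 69.2, 80.9 and 76.5 CPM with the non-silencing hairpin. The groups did not overlap, and the log2 changes were 0.73 (SE 0.117, adjusted p = 0.000503) and -0.49 (SE 0.119, 0.00698). With the guides S100A4 did not pass (-0.25 and -0.10, edgeR adjusted p = 0.0932 and 0.543), but with the correction for transcript length it fell with both (-0.33 and -0.25, SE 0.0565 and 0.0563, 0.000121 and 0.00361). ANXA9, an annexin whose calcium sites have degenerated, had 6.53, 6.86 and 6.47 CPM with guide 1 and 12.2, 12.3 and 13.7 CPM with guide 2, against 8.79, 9.20 and 9.33 CPM (-0.46 and 0.48, SE 0.0869 and 0.0831). ANXA4, an annexin of epithelial membranes, had 287, 308 and 305 CPM with guide 1 and 374, 417 and 403 CPM with guide 2, against 330.5, 331 and 329 CPM (-0.14 and 0.27, SE 0.0503 and 0.0502). The ANXA4 fall with guide 1 was lost without any of 5 libraries: each non-targeting replicate and guide 1 replicates 1 and 3 (adjusted p from 0.0674 to 0.143). Under the genotype grouping these 4 guide values changed sign, those of guide 2 resting on 1 library. S100A6, or calcyclin, fell with hairpin 2 (-0.40) and rose with guide 1 (0.65), a call lost without non-targeting replicate 2 or guide 1 replicate 2 or 3 (edgeR adjusted p from 0.0631 to 0.0698).

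The remaining WiDr calls were of single constructs. S100A16 had 116, 123 and 119 CPM with guide 1 and 86.9, 88.1 and 95.2 CPM with guide 2, against 82.3, 84.2 and 88.8 CPM with the non-targeting guide, and rose with guide 1 (log2 0.49, edgeR adjusted p = 1.46e-06) but did not pass with guide 2 (0.08, adjusted p = 0.274). The guide 1 call of S100A16 was lost in 1 of 17 alternatives. S100A5 had 1.43, 1.19 and 1.204 CPM with hairpin 1, against 0.441, 0.461 and 0.349 CPM with the non-silencing hairpin, and rose there (log2 1.59, SE 0.282). S100A3 rose with guide 1 (log2 1.15, SE 0.344), at 0.646, 1.07 and 0.683 CPM against 0.322, 0.253 and 0.522 CPM, and lost this call without non-targeting replicate 1 or 2 or guide 1 replicate 2 (edgeR adjusted p from 0.0536 to 0.107). Both genes were low, at most 1.43 CPM in these libraries. ANXA4 rose with hairpin 1 (0.44) as well as with guide 2.

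**Figure D3:**
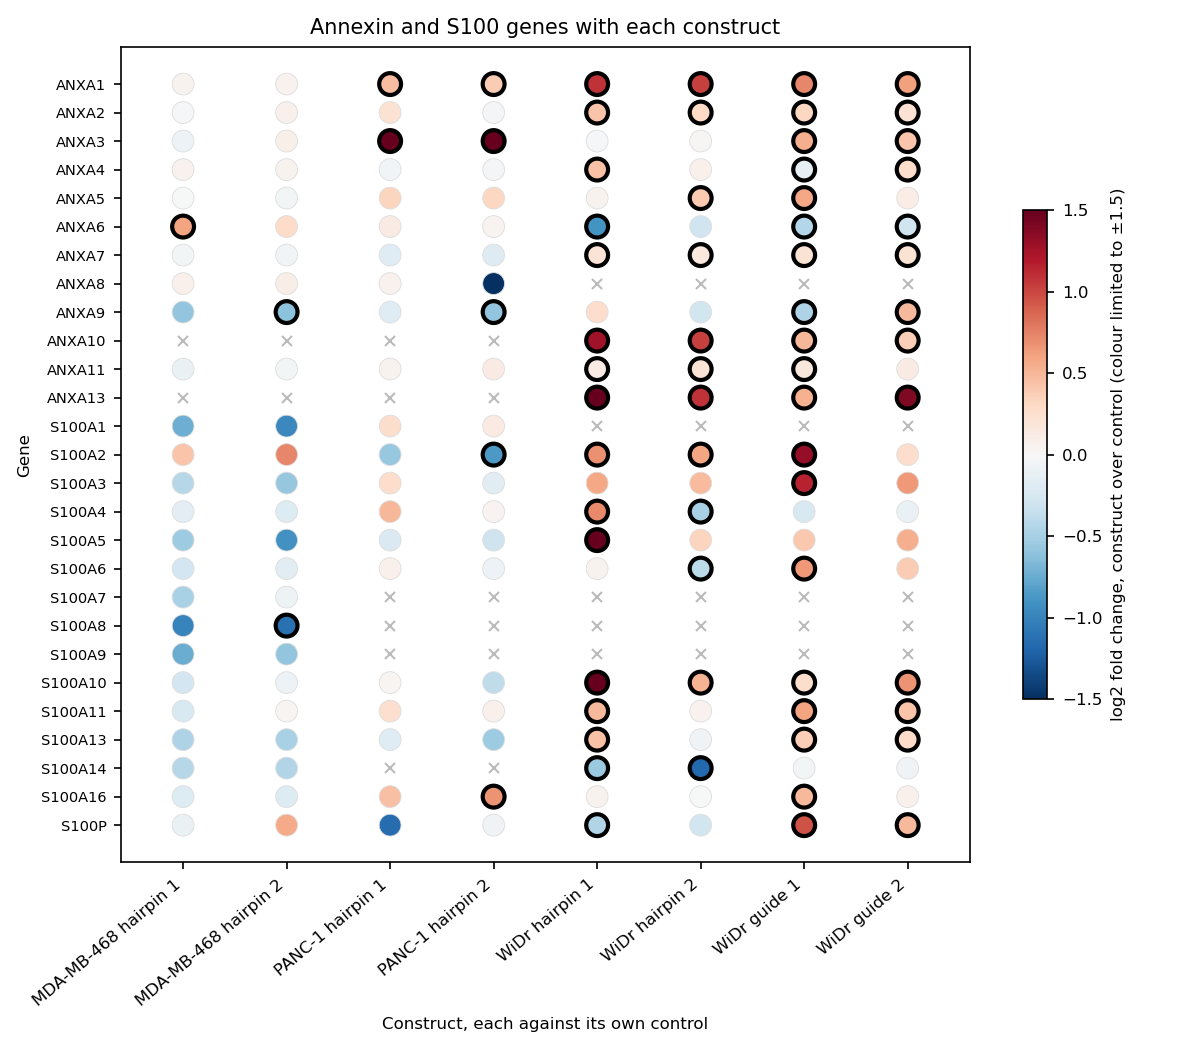
Log2 fold change (colour, limited to 1.5 either way) of the 27 genes tested in at least 1 experiment (rows) with each construct over its own control (columns). A black ring marks an adjusted p under 0.05 (edgeR quasi-likelihood test, Benjamini-Hochberg over all genes) and x a gene not tested. There are 16, 12, 19 and 13 rings in the WiDr columns and 1, 2, 2 and 5 in those of MDA-MB-468 and PANC-1.

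With the correction for transcript length, 14 members rose and 3 fell with WiDr hairpin 1 (over all genes 29.1% and 24.7%), 12 and 3 with hairpin 2 (26.3% and 21.5%), 16 and 4 with guide 1 (23.3% and 22.5%) and 12 and 2 with guide 2 (15% and 10.8%). The 6 genes up with all constructs passed in the same direction with each. The short genes themselves had median log2 changes of 0.137 with hairpin 1, -0.141 with hairpin 2, 0.072 with guide 1 and 0.162 with guide 2. ANXA11 no longer passed with both hairpins, and ANXA4 and S100A11 then did.

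In PANC-1 few members passed, although many genes did. With hairpin 1, 2 of 21 rose and 0 fell (5 at an unadjusted p under 0.05, as had 42.2% of all genes), where 30.2% of genes passed (16.2% up and 14% down). With the libraries labelled hairpin 2, 3 rose and 2 fell, where 33.4% passed (16.7% up and 16.7% down). The medians of the members were 0.07 and -0.03. Members wholly above the control numbered 5 and 5 of 21 (21.2% and 23.5% of all genes), and 1 and 2 lay wholly below (18.6% and 23%).

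ANXA1 rose in both PANC-1 groups. It had 139, 119 and 125 CPM with hairpin 1 and 116, 117 and 127 CPM in the libraries labelled hairpin 2, against 75.8, 103 and 98.2 CPM with the non-silencing hairpin, with no overlap. The log2 changes were 0.47 (SE 0.121, adjusted p = 0.018) and 0.38 (SE 0.121, 0.0379). The hairpin 1 call was lost without hairpin 1 replicate 1 (adjusted p = 0.0593) or 3 (0.0551). The hairpin 2 call was lost without any of 7 libraries (control replicates 1 and 3, hairpin 1 replicates 2 and 3, and each library labelled hairpin 2, adjusted p from 0.0575 to 0.13). ANXA3 also rose with both, at a very low level: 0.765, 0.428 and 0.517 CPM with hairpin 1 and 0.344, 0.403 and 0.345 CPM in the libraries labelled hairpin 2, against 0.128, 0.0598 and 0.177 CPM (log2 2.19 and 1.55, SE 0.406 and 0.43, edgeR adjusted p = 0.00357 and 0.0223). The ANXA3 call in the libraries labelled hairpin 2 was lost without control replicate 2 or any 1 of those libraries (0.0511 to 0.0766).

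The pair S100A10 and ANXA2 did not pass in PANC-1. With the correction for transcript length ANXA2 did with hairpin 1 (log2 0.25, SE 0.0545, edgeR adjusted p = 0.004). S100A10 had 737, 550.0 and 558 CPM with hairpin 1 and 436, 465 and 482 CPM in the libraries labelled hairpin 2, against 431, 703 and 670.0 CPM with the non-silencing hairpin (log2 0.03 and -0.38, SE 0.186 each, adjusted p = 0.915 and 0.141). ANXA2 had 2537, 2119 and 2138 CPM with hairpin 1 and 1866, 1940.2 and 1885 CPM in the libraries labelled hairpin 2, against 1543, 2153 and 2119 CPM (0.22 and -0.03, SE 0.14 each). For both genes control replicate 1 was the low library and the groups overlapped. Without control replicate 1, S100A10 fell in the libraries labelled hairpin 2 (-0.60, edgeR adjusted p = 0.0034), and 4 and 6 members fell with hairpin 1 and hairpin 2 in place of 0 and 2. The share of all genes that fell in that fit was not taken, so these counts cannot be set against it. S100A11 had 317, 253 and 245 CPM with hairpin 1 and 241, 245 and 236 CPM in the libraries labelled hairpin 2, against 165, 282 and 237 CPM (0.25 and 0.08).

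In the libraries labelled hairpin 2, S100A16 also rose (63.5, 67.1 and 59.9 CPM against 29.9, 44.4 and 45.2 CPM, log2 0.67, SE 0.167, adjusted p = 0.0142), and ANXA9 (-0.59, SE 0.178, 0.0316) and S100A2 (-0.86, SE 0.265, 0.0338) fell. The S100A16 call was lost without hairpin 2 replicate 1 (edgeR adjusted p = 0.0543) or 2 (0.058). That of ANXA9 was lost without control replicate 2 or 3 or hairpin 2 replicate 2 or 3 (0.0676 to 0.0943). That of S100A2 was lost without control replicate 2 or 3 or any library labelled hairpin 2 (0.0716 to 0.116), and both falls were lost with the replicate block (0.0574 and 0.0917). S100A2 had 5.45, 4.92 and 4.43 CPM there, against 5.54, 10.2 and 11.2 CPM in the control, where control replicate 1 lay close to the hairpin libraries. The summed S100 level was 2583, 1873 and 1876 CPM with hairpin 1 and 1708, 1825 and 1783 CPM in the libraries labelled hairpin 2, against 1293, 2300.7 and 2209.8 CPM in the control. Ribosomal RNA genes took 0.838% to 2.6% of counts with hairpin 1 and 1.22% to 1.8% in the libraries labelled hairpin 2, against 4.61% to 9.6% in the control. A fit that leaves these genes out was run as an alternative, and any further part of them in the result was not tested. Of the 6 pancreatic line markers, 1 rose and 3 fell with both hairpins, where 12.7% and 11.1% of all genes did. KRT8 (-0.61 and -0.89), KRT18 (-0.58 and -0.89) and CDH2 (-0.75 and -0.55) fell. The summed level of this list was 10895 to 12708 CPM with hairpin 1 and 9484 to 10034 CPM in the libraries labelled hairpin 2, against 9785 to 12749 CPM in the control. Their part in the S100 and annexin values was not tested.

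With the correction for transcript length, 9 members rose and 2 fell with PANC-1 hairpin 1, where 19.7% of genes rose and 26.1% fell, and 7 rose and 3 fell in the libraries labelled hairpin 2 (19.6% and 27.1%). ANXA1, ANXA3, ANXA5, S100A4, S100A6, S100A11 and S100A16 then passed upward with both, and ANXA7 and S100A2 passed downward with both. The share of all genes up with both was then 15.7%, and down with both 21.2%. S100A4 for example had corrected log2 changes of 0.62 (SE 0.061) and 0.37 (SE 0.061), against uncorrected values of 0.49 and 0.05 that did not pass. This correction sets the short genes of each library to the same trend and so also removes any change that short genes share.

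In MDA-MB-468 a single member passed with hairpin 1 and 2 with hairpin 2, of 25 tested. The share of all genes that passed was also small, 2.27% with hairpin 1 (1.24% up and 1.03% down) and 3.49% with hairpin 2 (1.69% up and 1.8% down). At an unadjusted p under 0.05 there were 6 and 10 members, where 12.9% and 15.6% of all genes were. The medians of the members were -0.21 and -0.07, and those of the 15 S100 genes tested were -0.43 and -0.20. Members wholly above the control numbered 1 and 1 (10.1% and 9.47% of all genes), and 6 and 4 lay wholly below (9.73% and 9.52%).

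ANXA6 rose with hairpin 1: 53.8, 51.6 and 53.9 CPM with hairpin 1 and 42.6, 41.5 and 43.3 CPM with hairpin 2, against 35.8, 34.2 and 34.9 CPM with the non-silencing hairpin. The 3 groups did not overlap, and the log2 changes were 0.60 (SE 0.0647, adjusted p = 0.00262) and 0.28 (SE 0.0647, 0.0514). ANXA9 had 6.63, 5.41 and 7.31 CPM with hairpin 1 and 6.58, 5.90 and 6.60 CPM with hairpin 2, against 10.8, 9.39 and 9.005 CPM, again with no overlap (-0.59 and -0.61, SE 0.132 each, edgeR adjusted p = 0.0617 and 0.0415). The hairpin 2 call of ANXA9 was lost without the filter on low counts (0.0511) and without any of 8 libraries, every one but hairpin 1 replicate 2 (0.0571 to 0.144). The direction of ANXA6 in this line was opposite to that in WiDr, and the difference of the 2 changes was 1.03 (SE 0.114, adjusted p = 1.33e-05).

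Of the calprotectin genes in MDA-MB-468, S100A8 fell with hairpin 2 and S100A9 passed with neither hairpin. S100A8 had 88.5, 90.7 and 106 CPM with hairpin 1 and 87.7, 65.1 and 109 CPM with hairpin 2, against 243, 153 and 173 CPM, so all hairpin libraries lay below all controls. The log2 changes were -0.998 (SE 0.215, adjusted p = 0.0534) and -1.12 (SE 0.215, 0.0263). The hairpin 2 call was lost without any of 6 libraries: control replicate 3, each hairpin 1 replicate and hairpin 2 replicates 1 and 2 (adjusted p from 0.0504 to 0.118). S100A9 had 458, 466 and 521 CPM with hairpin 1 and 523, 409 and 671 CPM with hairpin 2, against 1050.0, 606 and 759 CPM, where the hairpin 2 range overlapped the control (-0.74 and -0.59, SE 0.22 each, adjusted p = 0.155 and 0.226). With the correction for transcript length both genes passed with both hairpins, S100A8 at -0.89 (SE 0.0485, adjusted p = 1.31e-05) and -1.11 (SE 0.0488, 1.76e-06) and S100A9 at -0.62 (SE 0.0512, 0.000149) and -0.57 (SE 0.0512, 0.000201). Under that correction 2 members rose with both hairpins (ANXA6 and S100A2, 2.2% of all genes) and 5 fell with both (S100A8, S100A9, S100A13, S100A14 and ANXA9, 1.87% of all genes), and the calls of each hairpin were 2 up and 7 down (3.5% and 3.23% of genes) and 3 up and 8 down (4.81% and 4.95%).

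**Figure D4:**
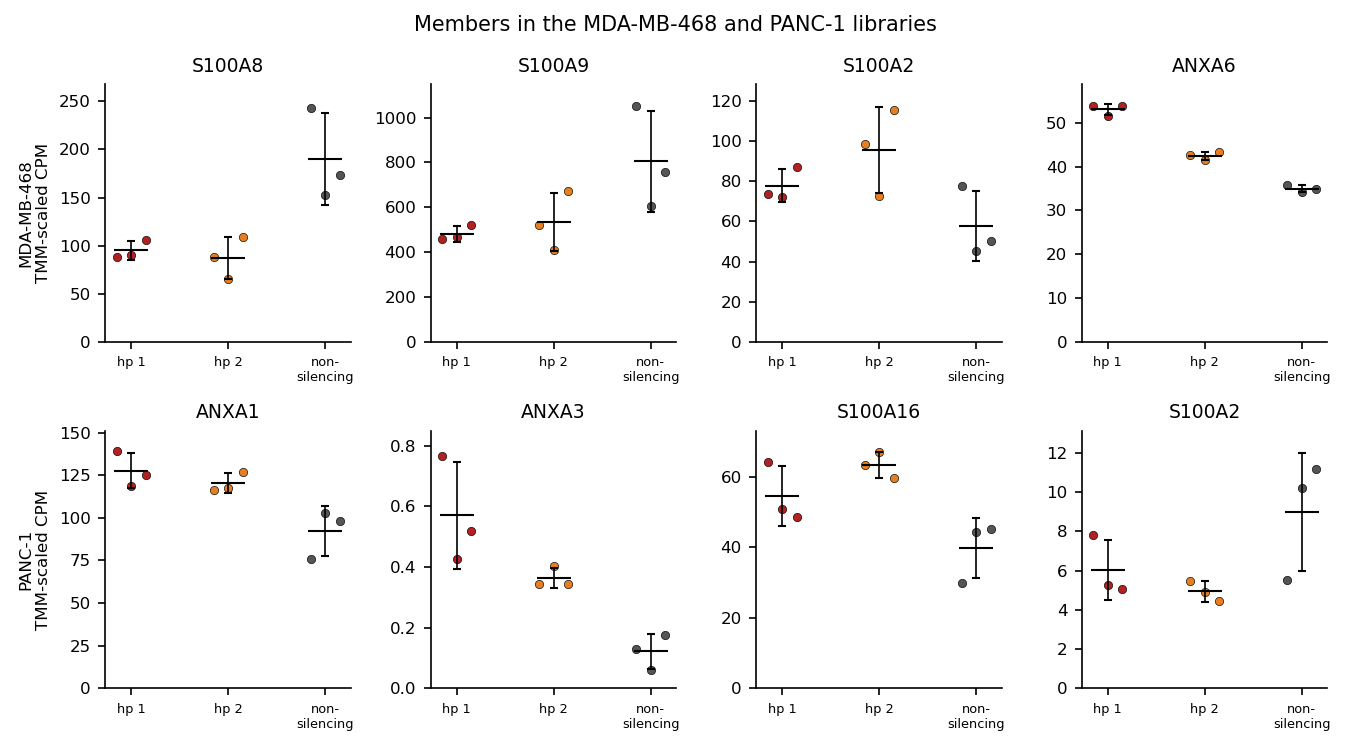
CPM (y axes, linear from 0) of S100A8, S100A9, S100A2 and ANXA6 in MDA-MB-468 (top) and of ANXA1, ANXA3, S100A16 and S100A2 in PANC-1 (bottom), with 1 point per library, a bar at the group mean and whiskers of 1 SD. The hairpin groups (hp) stand left of the non-silencing control. S100A8 and S100A9 are highest in MDA-MB-468 control replicate 1, at 243 and 1050.0 CPM.

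The pairs S100A10 with ANXA2 and S100A11 with ANXA1 did not pass in MDA-MB-468. With the correction for transcript length S100A10 did with hairpin 1 (-0.20, SE 0.0414, edgeR adjusted p = 0.0207). S100A10 had 210.4, 218 and 234 CPM with hairpin 1 and 253, 206 and 290.2 CPM with hairpin 2, against 315, 226 and 258 CPM (-0.27 and -0.09, SE 0.148 each). ANXA2 had 1009, 1029 and 1095 CPM with hairpin 1 and 1134, 989 and 1206 CPM with hairpin 2, against 1211, 909 and 1045 CPM (-0.01 and 0.07, SE 0.117 each). For both the groups overlapped. S100A11 had 218, 217 and 249 CPM with hairpin 1 and 276, 210.4 and 338 CPM with hairpin 2, against 325, 226 and 258 CPM (-0.24 and 0.03), and ANXA1 had 445, 459 and 473 CPM and 465, 418 and 509.6 CPM, against 490.4, 392 and 449 CPM (0.05 and 0.06). The change of S100A10 was lower than in WiDr with hairpins by a tested difference of -1.23 (SE 0.141, adjusted p = 1.79e-05), and that of ANXA1 by -1.01 (SE 0.1, adjusted p = 4.49e-06). Over members tested in both experiments, the log2 change was higher for 2 and lower for 2 of 21 in MDA-MB-468 than in PANC-1, where 12.1% and 11.7% of all genes were (23.9% in all). It was higher for 1 and lower for 9 of 20 in MDA-MB-468 than with the WiDr hairpins (9.27% and 8.96%, 18.2% in all), and the 9 became 4 without the filter on low counts and 4 to 10 without 1 library. It was higher for 3 and lower for 5 of 19 in PANC-1 than with the WiDr hairpins (20.9% and 16.2%, 37.2% in all), and higher for 5 and lower for 5 of 22 with the WiDr guides than with the hairpins (22% and 19.6%, 41.6% in all). These shares cover every gene kept in the joint fit, also genes not tested in 1 of the experiments, so the gene sets are not quite alike.

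Markers of other cell types were looked at beside S100A8 and S100A9, which myeloid cells make in quantity. In MDA-MB-468 4 of the 8 myeloid markers passed the filter and none passed with either hairpin, where 2.27% and 3.49% of all genes did. PTPRC, the pan-leukocyte gene, averaged at most 0.0473 CPM in a line's control, FCGR3A had 0 counts and SPI1 at most 0.0922 CPM. The summed myeloid list was 33.1 to 34.9 CPM with hairpin 1 and 30.6 to 39.2 CPM with hairpin 2, against 25.4 to 36.3 CPM with the non-silencing hairpin. Of the 6 basal breast markers 3 rose with both hairpins, where 0.744% of all genes did: KRT14 (1.17 and 1.08), KRT6B (0.59 and 1.25) and GABRP (0.53 and 0.68). Their list summed to 4754 to 5415 CPM with hairpin 1 and 5107 to 5883 CPM with hairpin 2, against 3792 to 4614 CPM in the control, and its part in the calprotectin values was not tested.

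Control cells of the 3 lines were compared for their levels of the 31 genes. Some line markers followed the labels: KRT5 (1588 CPM), KRT14 and KRT17 in MDA-MB-468, VIM (3901 CPM), CDH2 and ZEB1 in PANC-1, and KRT20 (721 CPM), LGALS4 (429 CPM), CEACAM5 and VIL1 in WiDr. The summed pancreatic list was 9758 to 12293 CPM in PANC-1, but also 3483 to 4968 CPM in MDA-MB-468 and 3922 to 4329 CPM in WiDr. Levels by line of its members KRT7, KRT8 and KRT18, and of the basal markers KRT6B, GABRP and EGFR, are not given here. The colorectal factor CDX1 was at 0.796 CPM and CDX2 at 2.96 CPM in WiDr, below PANC-1 for CDX2 (10.4 CPM), and CDH17 at 0.47 CPM. LYZ, from the myeloid list, stood at 1545 CPM in WiDr and CD68 at 82.0 CPM in PANC-1. Of 27 members tested, 14 were higher and 8 lower in MDA-MB-468 than in PANC-1 (34.7% and 34.8% of all genes, 69.5% in all), 16 higher and 8 lower in MDA-MB-468 than in WiDr (36.9% and 34.9%, 71.7% in all), and 9 higher and 10 lower in PANC-1 than in WiDr (37.6% and 34.9%, 72.6% in all). Line and culture or library batch cannot be told apart in this comparison. Control values here come from a fit of these 9 libraries alone and so differ slightly from those given within each experiment.

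**Figure D5:**
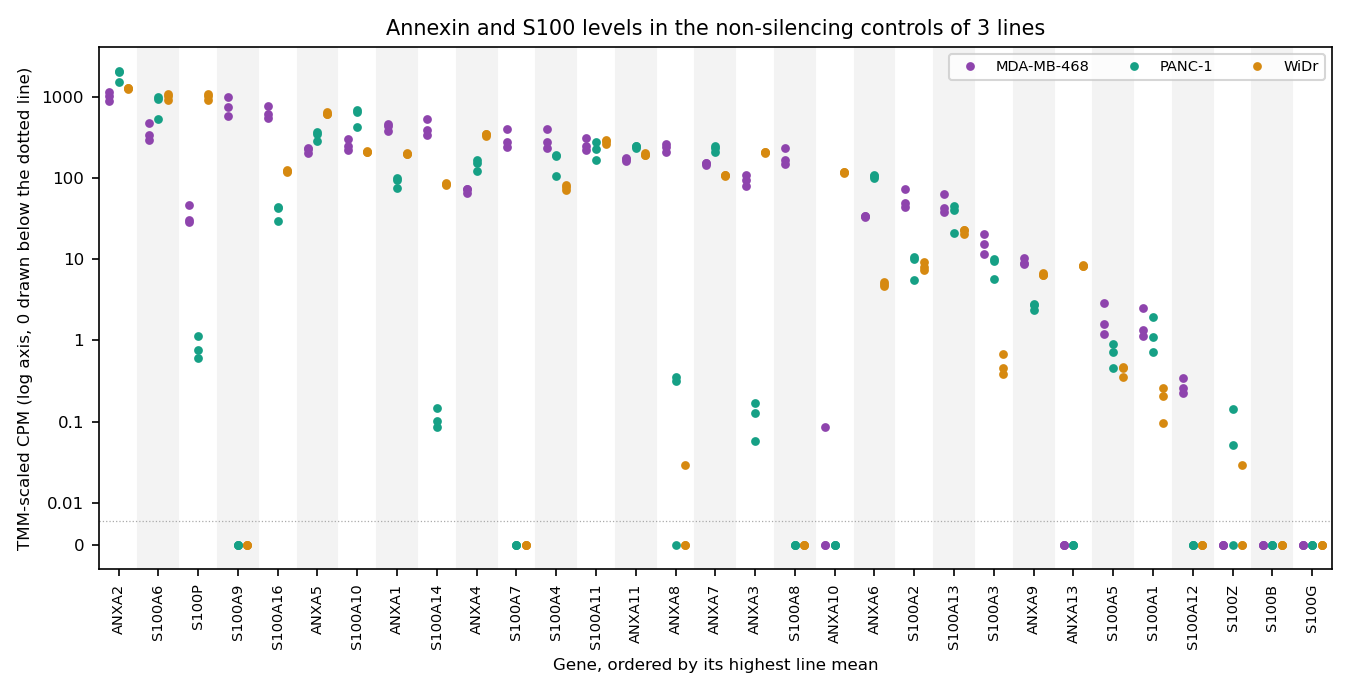
CPM (y axis, log scale, with 0 drawn below the dotted line) of all 31 genes (x axis, ordered by their highest line mean) in the control libraries of MDA-MB-468, PANC-1 and WiDr, with 1 point per library. S100A7, S100A8 and S100A9 are at 0 in PANC-1 and WiDr, and ANXA13 is at 0 in MDA-MB-468 and PANC-1.

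MDA-MB-468 control cells stood out by the S100 genes of stressed epithelium. S100A9 had 995, 586 and 737 CPM in MDA-MB-468, S100A7 (psoriasin) 406, 239 and 276 CPM and S100A8 231, 148 and 168 CPM, and all 3 had 0 counts in each control library of PANC-1 and WiDr. With a floor of 3 counts over the lower group, S100A9 was at least 27969.7-fold higher than in PANC-1 and 24637-fold higher than in WiDr, S100A7 at least 11133-fold and 9807-fold, and S100A8 at least 6603-fold and 5817-fold. S100A12, or calgranulin C, had 0.256, 0.224 and 0.341 CPM in MDA-MB-468 and 0 counts in the other two lines. ANXA8, an annexin of stratified and basal epithelium, had 264, 211 and 238 CPM in MDA-MB-468, against 0.350, 0.319 and 0 CPM in PANC-1 and 0, 0.0295 and 0 CPM in WiDr. Its ratio to WiDr, where 1 read was counted, was 22741 with an exact 95% interval of 4081 to 898254 that covers counting error only. The PANC-1 against WiDr call of ANXA8 (log2 4.05, adjusted p = 0.0198) rests on 25 against 1 reads and was lost without PANC-1 replicate 1 or 2 or WiDr replicate 1 or 3.

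S100A14 and S100A16, which lie close together on chromosome 1, were also highest in MDA-MB-468. S100A14 had 527, 341 and 395 CPM there, against 0.102, 0.145 and 0.0854 CPM in PANC-1 and 81.7, 87.9 and 85.2 CPM in WiDr (log2 11.85, SE 0.268, over PANC-1 and 2.31, SE 0.155, over WiDr). S100A16 averaged 651 ± 117 CPM in MDA-MB-468, 38.9 ± 7.81 CPM in PANC-1 and 121 ± 4.47 CPM in WiDr (SD, n = 3 each). S100A2 averaged 55.3 ± 15.9 CPM, 8.74 ± 2.81 CPM and 8.19 ± 1.03 CPM in the same order, and PANC-1 and WiDr did not differ beyond their spread (log2 0.09, adjusted p = 0.78). S100A4 averaged 302 ± 84.9, 161 ± 47.8 and 77.3 ± 6.09 CPM, and all 3 comparisons passed. S100A3 averaged 15.8 ± 4.48, 8.45 ± 2.33 and 0.506 ± 0.157 CPM, and all 3 passed as well.

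WiDr control cells had the digestive annexins and S100P. ANXA10 had 119, 115 and 120.1 CPM in WiDr, 0 counts in PANC-1 and 0.0854, 0 and 0 CPM in MDA-MB-468. It was at least 4269-fold higher in WiDr than in PANC-1, and its ratio to MDA-MB-468, which rests on 3 reads, was 4049.9 (exact 95% interval 1385 to 19641). ANXA13 had 8.41, 8.35 and 8.33 CPM in WiDr and 0 counts in both other lines, at least 303-fold over PANC-1 and 287-fold over MDA-MB-468. S100P had 46.2, 28.6 and 30.0 CPM in MDA-MB-468 and 0.614, 0.755 and 1.14 CPM in PANC-1, against 904, 1075 and 1026 CPM in WiDr (log2 -4.84, SE 0.239, and -10.23, SE 0.315). ANXA3 had 108, 80.4 and 94.0 CPM in MDA-MB-468 and 0.128, 0.0581 and 0.171 CPM in PANC-1, against 210.4, 205 and 210.1 CPM in WiDr (-1.15, SE 0.134, and -10.72, SE 0.235). ANXA4 averaged 70.5 ± 4.69 CPM in MDA-MB-468, 147 ± 23.7 CPM in PANC-1 and 341 ± 10.3 CPM in WiDr, and ANXA5 220.3 ± 17.3, 337 ± 44.4 and 625 ± 13.2 CPM, with all 3 comparisons passed for each.

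PANC-1 was the line with the most ANXA6, ANXA7, ANXA11, ANXA2 and S100A10. ANXA6 averaged 33.6 ± 0.515 CPM in MDA-MB-468, 105 ± 5.12 CPM in PANC-1 and 4.97 ± 0.302 CPM in WiDr, and ANXA7 149.8 ± 6.35, 231 ± 20.6 and 108 ± 1.52 CPM. S100A10 averaged 256 ± 40.4, 586 ± 137 and 209 ± 4.50 CPM, and MDA-MB-468 and WiDr did not differ beyond their spread (log2 0.29, adjusted p = 0.162). ANXA2 averaged 1014 ± 134, 1891 ± 306 and 1266 ± 18.3 CPM, again with no call between MDA-MB-468 and WiDr (-0.32, adjusted p = 0.0668). ANXA1, in contrast, was lowest in PANC-1: 427 ± 43.9, 90.1 ± 12.9 and 199 ± 2.88 CPM. S100A6 averaged 367 ± 96.0, 820.5 ± 257 and 1006 ± 79.8 CPM, and PANC-1 and WiDr did not differ beyond their spread (-0.29, adjusted p = 0.309). S100A11, at 259 ± 44.8, 222 ± 54.9 and 280.3 ± 15.9 CPM, passed in none of the 3 comparisons.

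For the remaining members, ANXA11 averaged 169 ± 6.81 CPM in MDA-MB-468, 241 ± 9.22 CPM in PANC-1 and 196 ± 5.80 CPM in WiDr, and ANXA9 9.34 ± 0.758, 2.62 ± 0.216 and 6.51 ± 0.245 CPM (SD, n = 3 each), with all 3 comparisons passed for each. S100A13 averaged 48.4 ± 14.0, 35.6 ± 12.9 and 22.0 ± 1.52 CPM in the same lines, and only MDA-MB-468 over WiDr passed (log2 1.14). S100A5 averaged 1.90 ± 0.893 CPM in MDA-MB-468, above PANC-1 (0.699 ± 0.227 CPM) and WiDr (0.427 ± 0.0609 CPM), which did not differ beyond their spread (log2 0.70, edgeR adjusted p = 0.163). S100A1 averaged 1.66 ± 0.745 CPM in MDA-MB-468 and 1.25 ± 0.623 CPM in PANC-1, without a call between them (adjusted p = 0.426), and both stood above WiDr, at 0.188 ± 0.0834 CPM. S100B and S100G had 0 counts in every control library of the hairpin experiments, and S100Z averaged at most 0.0645 CPM.

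Levels of different genes can be compared only per transcript length. Per kilobase, the highest members in MDA-MB-468 were S100A9 (1339 CPM per kb), S100A7 (641), ANXA2 (605), S100A16 (568), S100A6 (546) and S100A4 (504). In PANC-1 they were S100A6 (1219), ANXA2 (1128), S100A10 (488) and S100A11 (374), and in WiDr S100A6 (1495), S100P (783), ANXA2 (755) and S100A11 (472). S100A10 per kb was below ANXA2 in each line (213 against 605 in MDA-MB-468, 488 against 1128 in PANC-1 and 174 against 755 in WiDr). These values use 1 principal transcript per gene.

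Genes of the same pathways were counted from lists chosen with earlier results of these data known. Of 31 partners and receptors of S100 proteins and annexins, 22 were tested in the MDA-MB-468 experiment and as many in the PANC-1 one, and 21 in each WiDr experiment. With both MDA-MB-468 hairpins none passed in the same direction, and with both PANC-1 hairpins 2 rose and 3 fell, among them PLAUR, the urokinase receptor (1.92 and 1.96), and AHNAK2 (1.26 and 1.65), which rose, and SUGT1 (-0.53 and -0.55), which fell. In WiDr 2 rose and 3 fell with both hairpins and 7 rose and 3 fell with both guides. TLR4, a receptor for S100A8 and S100A9, fell with each construct (-0.84 and -0.95 with the hairpins, -0.71 and -0.73 with the guides). STIP1 (-0.46 and -0.37) and BSG (-0.22 and -0.26), a receptor for S100A9, fell with the hairpins, and with the guides ALCAM rose (0.77 and 0.90) and MYH10, a non-muscle myosin, fell (-0.94 and -0.43). The list's median log2 changes were -0.04 and -0.03 with the MDA-MB-468 hairpins, 0.08 and 0.16 with the PANC-1 hairpins, 0.10 and 0.02 with the WiDr hairpins and 0.25 and 0.10 with the guides. Of all genes, 12.7% rose and 11.1% fell with both PANC-1 hairpins, 12.3% and 12.9% with both WiDr hairpins, 8.48% and 6.26% with both guides and 0.744% and 0.567% with both MDA-MB-468 hairpins.

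Other genes of the epidermal differentiation complex, the chromosome 1 neighbours of the S100 cluster, were counted next. Of 27 in the table, 8 passed the filter in MDA-MB-468, 3 in PANC-1, 3 in the WiDr hairpin experiment and 4 in the guide experiment. A single one passed with both constructs, FLG, which encodes filaggrin. It fell with both guides in WiDr (-1.18 and -1.25), where 6.26% of all genes did. Of 39 other calcium sensors of the EF-hand type, 30 were tested in each of the MDA-MB-468 and PANC-1 experiments and 31 in each WiDr experiment. In MDA-MB-468 1 rose and 0 fell with both hairpins (0.744% and 0.567% of all genes). The gene that rose was NCALD, a neuronal calcium sensor (1.52 and 1.24). In PANC-1 8 rose and 1 fell (12.7% and 11.1% of all genes), with NCALD (2.67 and 2.54), CALB2 (1.93 and 1.92) and RCN3 (1.60 and 1.80) the largest. In WiDr 4 rose and 9 fell with both hairpins (12.3% and 12.9% of all genes), among them RCN3 (1.15 and 0.98), CIB2 (-1.66 and -0.91) and HPCA (-0.75 and -0.85). With both guides 6 rose and 2 fell (8.48% and 6.26%), among them CIB2 (-0.61 and -0.56), CIB1 (0.54 and 0.33) and SRI (0.28 and 0.26). The median log2 changes of these sensors lay between -0.06 and 0.17 over the 8 construct comparisons.

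In WiDr cells with hairpins, 2 of the 4 myeloid markers tested rose with both (12.3% of all genes), ITGAM (2.21 and 1.52) and LYZ (0.68 and 0.17). The list summed to 2340.0 to 2579 CPM with hairpin 1 and 1660.1 to 1785 CPM with hairpin 2, against 1502 to 1529.6 CPM in the control. With the guides none of the 4 rose or fell with both (8.48% and 6.26% of all genes). The list then summed to 1421 to 1546 CPM with guide 1 and 1983 to 2160 CPM with guide 2, against 1938 to 2033 CPM with the non-targeting guide. In PANC-1 1 of 3 tested rose with both (12.7% of all genes), CD68 (0.72 and 1.03). The list there summed to 136 to 146 CPM with hairpin 1 and 170.1 to 181 CPM in the libraries labelled hairpin 2, against 78.2 to 93.2 CPM in the control. PTPRC had no count in the WiDr control, and the part of this list in the S100 and annexin values was not tested. Markers of the other lines passed in places: GABRP, of the basal breast list, rose with both WiDr hairpins (1.24 and 0.80), KRT7, of the pancreatic list, with both WiDr guides (1.59 and 0.37), and in PANC-1 the colorectal genes CDH17 (3.83 and 3.75) rose and CDX2 (-0.94 and -1.13) fell. In MDA-MB-468 none of the 4 pancreatic and 2 colorectal markers tested passed with both hairpins, where 0.744% of all genes rose and 0.567% fell with both.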

How the data were processed

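Poly-A RNA was sequenced from 36 libraries. The deposited values are expected counts per gene symbol, made by the authors with Bowtie2 2.1.0 and RSEM 1.2.15 on hg38, per the submitters' processing notes. The annotation and the strand setting were not given in the sources used here. Expected counts were rounded to whole numbers. Each experiment of 9 libraries was fitted by itself in edgeR 4.0.16 (R 4.3.3; TMM scaling, filterByExpr, robust quasi-likelihood F test), the 9 hairpin control libraries in a further fit, and differences of changes over both experiments together. Benjamini-Hochberg adjustment ran over all genes tested, and an adjusted p under 0.05 was called. CPM are TMM-scaled, so a library's value differs slightly between fits. Totals were 28371127 to 49237322 counts. Replicates differed by more than sampling noise (chi-square per degree of freedom 3.51 to 185). Whether replicates came from separate cultures is not stated beyond the label, so p-values measure the spread between these samples. No interval covers more than counting error.

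The members and gene lists were chosen with earlier results of these data known. Values in every library are given for the partner pairs S100A10 with ANXA2, S100A11 with ANXA1 and S100A8 with S100A9, for up to 6 members per experiment that passed with both constructs the same way at a mean of at least 5 CPM, for up to 3 that passed in opposite directions and, between lines, for the 8 with the largest gap; other lists give up to 3 genes per experiment. Further genes with values, such as ANXA5, ANXA6, ANXA7, S100A16 and S100P with the hairpins, were named after their values were seen. Alternatives were RLE scaling, DESeq2 1.42.0, no filter, ribosomal RNA genes left out, a replicate block, all 36 libraries in 1 fit, guide groups by the genotype field, the guide control in place of the WiDr hairpin control, each library left out in turn and, chosen after seeing the data, a loess correction for transcript length. The scripts were tested on simulated data. Transcripts and positions are from GENCODE 29 and promoters from RefSeq. The gene that the constructs target is not reported here.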

Additional observations from a re-analysis of the deposited data

Results flagged for a closer look

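The changes listed here are the members whose log2 change, averaged over both constructs of an experiment, differed between 2 experiments by a test of the difference itself (edgeR quasi-likelihood test, Benjamini-Hochberg adjustment over all genes, adjusted p under 0.05). A positive difference means a higher change in the experiment named first.

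Between MDA-MB-468 and PANC-1 hairpins the differences were -1.85 (SE 0.348, adjusted p = 0.00113) for ANXA3, 0.37 (SE 0.0828, 0.00375) for ANXA6, -0.75 (SE 0.206, 0.0144) for S100A16 and 1.32 (SE 0.319, 0.00676) for S100A2. ANXA3 was below 1 CPM in every PANC-1 library.

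Between MDA-MB-468 and WiDr hairpins 9 differences were negative. They were -1.01 (SE 0.1, adjusted p = 4.49e-06) for ANXA1, -1.23 (SE 0.141, 1.79e-05) for S100A10, -0.35 (SE 0.109, 0.036) for ANXA2 and -0.61 (SE 0.147, 0.0078) for ANXA9. ANXA11 gave -0.24 (SE 0.0613, 0.0108), ANXA7 -0.24 (SE 0.0666, 0.0193) and ANXA5 -0.26 (SE 0.0814, 0.035). S100A3 gave -1.04 (SE 0.334, 0.0394) and S100A5 -1.71 (SE 0.381, 0.00491). ANXA6 alone was positive, at 1.03 (SE 0.114, 1.33e-05). Of 23 alternatives run for these differences, the call was kept in 4 for ANXA5, 5 for ANXA2, 8 for ANXA7, 8 for S100A3 and 12 for ANXA11, and in all 23 for the other 5 genes.

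Between PANC-1 and WiDr hairpins the annexin differences were -0.58 (SE 0.113, adjusted p = 0.000763) for ANXA1, 1.91 (SE 0.296, 9.59e-05) for ANXA3, 0.74 (SE 0.123, 0.000181) for ANXA6 and -0.32 (SE 0.0724, 0.00223) for ANXA7. The S100 differences were -1.16 (SE 0.172, 6.45e-05) for S100A10, 0.60 (SE 0.156, 0.00643) for S100A16, -1.30 (SE 0.265, 0.00105) for S100A2 and -1.18 (SE 0.353, 0.0146) for S100A5, which was lost without PANC-1 control replicate 3 (0.0587).

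Within WiDr, guides against hairpins, the annexin differences were -0.38 (SE 0.0671, adjusted p = 7.91e-05) for ANXA1, -0.71 (SE 0.0736, 5.71e-08) for ANXA10, -1.20 (SE 0.107, 6.57e-09) for ANXA13, -0.20 (SE 0.0604, 0.0109) for ANXA4 and 0.47 (SE 0.0676, 6.36e-06) for ANXA3. The S100 differences were -0.58 (SE 0.0993, 0.000118) for S100A10, 0.81 (SE 0.115, 1.31e-05) for S100A14, 0.26 (SE 0.0749, 0.00753) for S100A16, 0.69 (SE 0.19, 0.0108) for S100A6 and 1.09 (SE 0.174, 0.000202) for S100P. By the genotype field the differences of ANXA4 and S100A16 did not pass (edgeR adjusted p = 0.154 and 0.072).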

How the results depend on the processing

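With the transcript length correction, members up and down numbered 2 and 7 with MDA-MB-468 hairpin 1, 3 and 8 with hairpin 2, 9 and 2 with PANC-1 hairpin 1, and 7 rose with PANC-1 hairpin 2 and 2 fell with guide 2. DESeq2 called 3 down with MDA-MB-468 hairpin 1, 2 up with its hairpin 2 and 4 up and 1 down with PANC-1 hairpin 1. With all 36 libraries in 1 fit, 3 fell with MDA-MB-468 hairpin 1 and 2 rose with its hairpin 2, 5 rose and 3 fell with PANC-1 hairpin 1, 5 rose and 5 fell with PANC-1 hairpin 2, and 6 rose with guide 2. RLE scaling and leaving out ribosomal RNA genes each called 1 up with MDA-MB-468 hairpin 2. Without the filter, 1 fell with each MDA-MB-468 hairpin. Of changes lower in MDA-MB-468 than in PANC-1, RLE scaling and leaving out ribosomal RNA each called 4 and DESeq2 5; of those lower than with WiDr hairpins, no filter left 4. By the genotype field, which leaves guide 2 with 1 library assumed to vary like the others, 8 rose and 1 fell with guide 1, 5 rose and 0 fell with guide 2, and 4 values reversed: ANXA9 at 0.18 and -0.49 (adjusted p = 0.693 and 0.507) and ANXA4 at 0.12 and -0.11 (0.572 and 0.754, edgeR) with guides 1 and 2. The causes were not tested. Except for the transcript length correction and the genotype grouping, the share of all genes called under each alternative was not taken. Counts of members under the other alternatives, here and below, cannot be set against such a share.

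Same-numbered libraries correlated between -0.694 and 0.652, and in no experiment did all 9 pairs pass 0.1. In the guide experiment 4 of 9 same-numbered pairs passed 0.1, against 0 of 18 with different numbers. In MDA-MB-468 2 of 9 and 6 of 18 did, in PANC-1 1 of 9 and 4 of 18, and with WiDr hairpins 1 of 9 and 3 of 18. These values do not settle whether the numbers pair samples. With the replicate block 1 fell with MDA-MB-468 hairpin 1, 1 rose with PANC-1 hairpin 1 and 0 fell with PANC-1 hairpin 2; PANC-1 ANXA1 then had an adjusted p = 0.0554 and 0.0904, WiDr ANXA11 with hairpin 1 0.0871, S100A6 with guide 1 0.077 and S100P with guide 2 0.114 (edgeR).

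Leaving out each library in turn, members up and down ranged over 1 to 1 and 0 to 1 with MDA-MB-468 hairpin 1, 0 to 1 and 0 to 1 with hairpin 2, 1 to 2 and 0 to 4 with PANC-1 hairpin 1, and 0 to 3 and 0 to 6 with PANC-1 hairpin 2. In WiDr they ranged over 12 to 14 and 3 to 3, 8 to 9 and 3 to 5, 12 to 16 and 2 to 3, and 10 to 13 and 0 to 1 with hairpin 1, hairpin 2, guide 1 and guide 2. Between lines they were 14 to 14 and 8 to 8, 16 to 17 and 7 to 9, and 8 to 10 and 10 to 11. Differences of changes ranged over 2 to 3 and 2 to 5, 1 to 3 and 4 to 10, 3 to 3 and 4 to 8, and 5 to 7 and 5 to 5, in the order given in the report.

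For ANXA1, ANXA2, ANXA7, ANXA10, ANXA13 and S100A10, 24 calls in WiDr, RLE scaling and DESeq2 changed none. The single fit lost 3: S100A10 with guide 1 (adjusted p = 0.255) and ANXA2 (0.247) and ANXA10 (0.0654) with guide 2. The genotype grouping lost 5 (S100A10 with both guides, ANXA2, ANXA7 and ANXA13 with guide 2). Depth limits ANXA3 in PANC-1, S100A12, S100B, S100G and S100Z, which had few or no reads.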
